A study of Ictidomys tridecemlineatus with 15 samples.

Results

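The genes described here are the 60 rows of a 13-lined ground squirrel (13LGS) retina count matrix that stood highest in photoreceptor precursors relative to every other annotated cell type, of 34181 rows in all. Counts of unique molecular identifiers (UMIs, 1 per captured mRNA molecule) were summed over all cells of each annotated type and divided by that type's total to give CPM, counts per 1000000. Each row was scored as log2 of its CPM in precursors plus 10 over its highest CPM in any of the 11 other types plus 10, and the 60 highest scores were chosen by these summed counts among the 3134 rows with at least 50 CPM in precursors. The list of gene names is shorter than the matrix and could not be tied to its rows, so each gene is named by its row number, counted from 1. For the same reason the precursor label could not be checked against marker genes, and no gene function or sequence is given.

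The study profiled whole retinas of the 13LGS, a rodent with a cone-dominant retina, by single-cell RNA-Seq across the period in which retinal neurons are born. The labels give no genotype, treatment or strain, so the groups used here are defined by age. Embryonic day 18 (E18) contributed 1 library and E21, E24 and E26 contributed 2 apiece, 7 in all. After birth, P8 and P12 contributed 2 apiece and P4, P17 and P21 a single one, again 7 in all. The study also sampled P1, whose cells were left out for the reason given under processing. Per the study's methods, embryos came from timed-pregnant captive dams and postnatal retinas from captive-bred litters, and tissue was methanol-fixed or flash-frozen, with the preservation of each library not given in the sources used here. Libraries of the same age are told apart by a and b, which carry no replicate number, and nothing in the labels says that they came from separate animals, so p-values measure the spread between libraries, which may be technical.

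Photoreceptor precursors are postmitotic cells that have left the neurogenic progenitor state and have not yet matured into cones or rods. In vertebrate retinas they are known for the transcription factors Otx2 and Crx, which switch on photoreceptor genes, and they arise from neurogenic progenitors that also give rise to bipolar, amacrine and horizontal cells. In most mammals cones are born early and rods late, and in ground squirrels the cone is the main product.

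Precursors numbered 2249 of the 46474 cells used, with 825 cells in 6 embryonic libraries (18 and 22 at E21, 268 and 69 at E24, 250 and 198 at E26) and 1424 in 5 postnatal libraries (468 at P4, 157 and 669 at P8, 36 and 94 at P12), and none at E18, P17 or P21. The library P8b stood apart, since 48.9% of its cells were precursors and it held 32.2% of all precursor UMIs. Median depth per cell was 5230.5 to 11868 UMIs in embryonic libraries and 1548 to 4175 in postnatal ones, whereas the precursors themselves overlapped, with library medians of 2837.5 to 7546 before birth and 1276 to 7056 after. Of 46210 cell barcodes, 263 occurred in over 1 library, with at most 8 shared by any pair.

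The rule found few rows that were close to exclusive to precursors. Only 116 of the 3134 rows that passed the level filter scored above 0, only 4 of the 60 members scored at least 1, and the median score of the members was 0.19, with a highest score of 1.42. These scores chose the rows and are given as a description. The last rows inside the list, 20649 and 7249, scored 0.0911 each, and the first rows outside it, 12760 and 15795, scored 0.0908 and 0.0899, so the edge of the list separates nearly equal values. The type with the second highest level was Cone for 10 members, HC (horizontal cells) for 10, BC (bipolar cells) for 9, Early_RPC (early primary progenitors) for 9, Late_NG (late neurogenic progenitors) for 5 and Early_NG (early neurogenic progenitors) for 4.

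Summed over the 60 members, the level was 20010 CPM in precursors, 13880 in Late_NG, 13057 in Cone, 12801 in Early_NG, 12231 in BC and 11409 in Rod. The median member stood at 124 CPM in precursors against 69.9 in Late_NG, 69.9 in Cone, 66.3 in Early_NG, 62.4 in BC and 55.5 in Rod. For 11 members every type held at least 50% of the precursor level, and for 14 members some type held under 10% of it, among them 9 of the 10 highest scores and 5 of the other members. These 5 were rows 26501 (rank 12), 11800 (rank 16), 23149 (rank 36), 8558 (rank 37) and 3991 (rank 40), so rows that were steeply graded between types were found below the highest scores too.

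**Figure D1:**
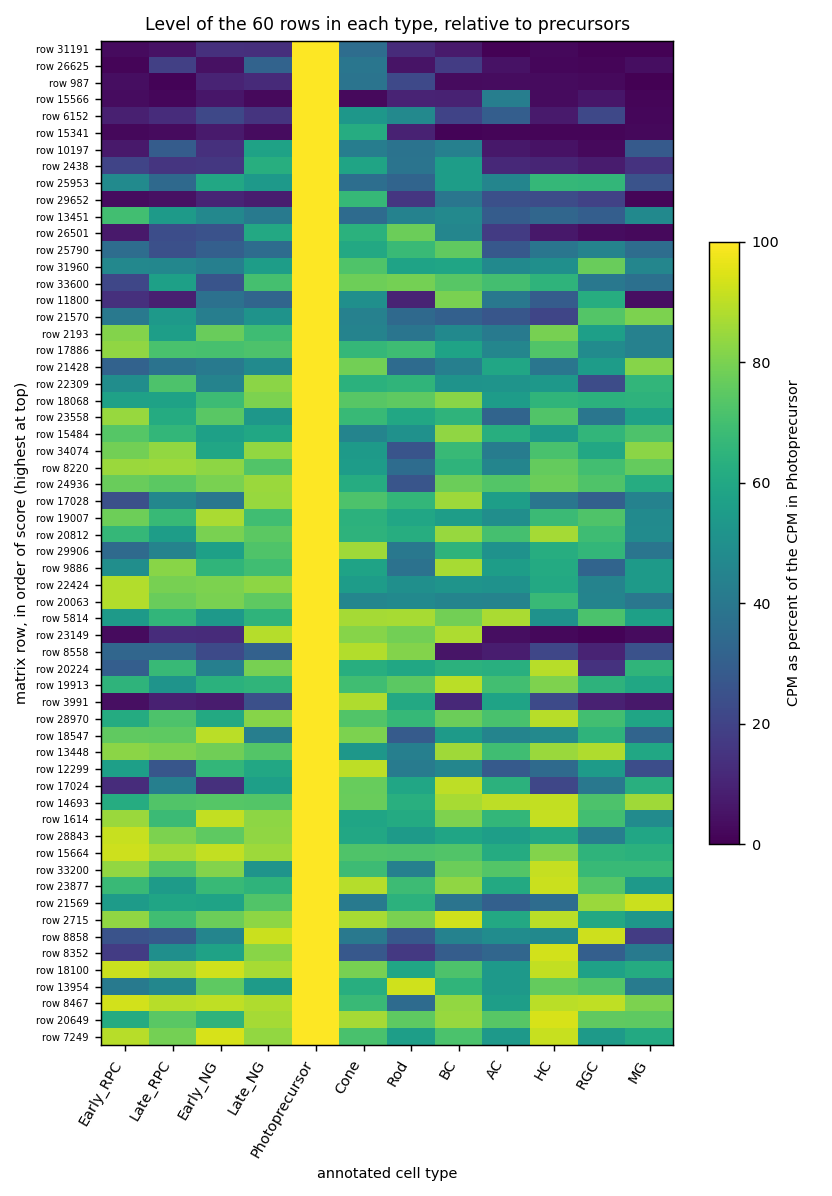
Level of the 60 rows (vertical axis, highest score at the top) in the 12 annotated types (horizontal axis), as percent of the CPM in Photoprecursor, from UMI counts summed over all cells of a type. The top rows are dark in most other types, with Cone the brightest neighbour for 6 of the first 10, and most lower rows are lighter, with dark cells left in rows such as 23149 (0.868% of the precursor level in RGC) and 8558 (5.56% in BC).

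Row 31191 had the highest score, at 425 CPM in precursors against 153 in Cone, 59.7 in Early_NG, 57.4 in Late_NG, 52.4 in Rod, 30.4 in BC and 2.50 in MG (Müller glia). Rows 26625 and 987 followed, at 117 and 97.0 CPM in precursors against 45.8 and 37.2 in Cone. Row 15566 held 125 CPM in precursors and differed from these in its neighbour, which was AC (amacrine cells) at 53.4 CPM, while Cone stood at 3.19. Cone was also the nearest type for row 6152 (466 CPM in precursors, 246 in Cone), row 15341 (523 and 325) and row 29652 (118 and 78.8). Late_NG was nearest for row 10197 (72.5 in precursors, 41.9 in Late_NG) and row 2438 (713 and 447), and HC for row 25953 (269 and 179).

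The standing of precursors above other types depended on age. Within single libraries, among types with at least 10 cells, all 10 highest-scoring rows peaked in precursors in each of the 6 embryonic libraries (against 4 to 7 other types) and at P4, but only 1 of 10 did so in P8a, 4 in P8b, 2 in P12a and 0 in P12b. Over all 60 members the number that peaked in precursors was 38 to 54 in the embryonic libraries, 39 at P4, 7 in P8a, 18 in P8b, 11 in P12a and 7 in P12b. Cones, rods and bipolar cells were scarce or absent in the libraries up to P4, so the comparison there was with fewer and other types. P8b had no cells labelled Cone, whereas P8a had 82, so the P8b counts were made without the nearest type of several rows. Types with at least 10 cells, precursors included, numbered 7 in P8b, 9 in P8a and 10 in each P12 library. No member peaked in precursors in all 11 libraries, 2 members, rows 15484 and 22424, did so in none, and row 28843 in 1.

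The summed level of the members followed the same course in precursors, but abundant rows weigh most in it. Rows 15664, 7249 and 17886, plentiful in every type, held 2778, 2710 and 2406 of its 20010 CPM over all precursors. The sum was 22236 and 18787 CPM at E21, 20688 and 23573 at E24, 26452 and 25181 at E26, 19361 at P4, 15447 and 18810 at P8, and 13576 and 17042 at P12. Early_NG stayed between 12010 and 13582 CPM in its embryonic libraries, and postnatal Late_NG ranged from 10294 to 17969, so the ranges of the 2 types overlapped across libraries. Within a library the precursors stood above Late_NG in 6 of 6, by 12933.5 CPM in E26a, 5544 at P4, 591.6 in P8a, 840.3 in P8b, 2616.5 in P12a and 1973.6 in P12b, a description of the contrast that chose the rows. The sum also moved with the library in other types: P12b exceeded P12a in Cone (17913 and 13605), Rod (17386 and 13459) and BC (14187 and 11014), and P8b exceeded P8a in Late_NG (17969 and 14856) and AC (13463 and 11684). Retinal ganglion cells (RGC), a type that precursors are not known to give rise to, held 9228 to 11504 CPM before birth and 4496 to 8854 after, so a lower summed level after birth was not confined to precursors.

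**Figure D2:**
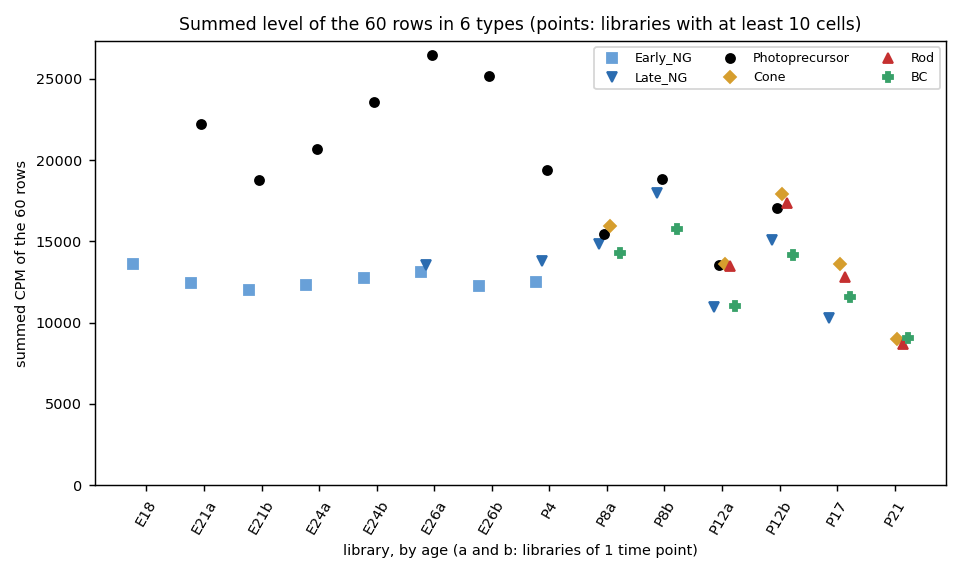
Summed CPM of the 60 rows (vertical axis) in each library with at least 10 cells of the type (horizontal axis, by age), with 1 symbol per type. Precursors (black) sit at 18787 to 26452 before birth, above every Early_NG value, and at 13576 to 18810 at P8 and P12, next to Late_NG, Cone, Rod and BC.

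The first comparison asked how the rows change with age inside the precursors, postnatal against embryonic libraries. Of the 60 members 27 fell after birth and 0 rose (edgeR quasi-likelihood test, Benjamini-Hochberg adjusted over 8571 rows, threshold 0.05), where 11.3% of all rows tested fell and 13.4% rose. The median log2 change of the members was -0.52 against 0.02 over all rows tested, and 15 of the 27 fell by at least 2-fold. The 0 rises compare with 2 at an unadjusted p below 0.05 and 0 with DESeq2. For 14 members every embryonic library lay above every postnatal one, and for none the reverse. The shares of all rows that fell by at least 2-fold or did not overlap were not computed, so these counts are descriptions.

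Row 15566 showed the largest fall. It stood at 137 and 311 CPM in the E21 libraries, 206 and 351 at E24, 250 and 548 at E26, 25.6 at P4, 0 and 3.45 at P8, and 0 and 0.89 at P12. Its groups did not overlap, and after P4 it was close to undetected: 0 UMIs in P8a and P12a allow up to 3.40 and 16.5 CPM at a limit of 3 counts, which covers counting error only. The log2 change was -5.71 ± 0.61 (SE, adjusted p = 4.73e-06, edgeR).

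Row 987 was the next. Its precursor level was 68.6 and 123 CPM at E21, 206 and 325 at E24, 137 and 353 at E26, and then 17.1 at P4, 11.3 and 12.6 at P8, and 10.97 and 21.4 at P12. Every embryonic library stood at least 3 times above the highest postnatal one, and the log2 change was -3.86 ± 0.38 (SE, adjusted p = 3.19e-06, edgeR).

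Rows 15341 and 6152 fell more gradually, with P4 between the stages. Row 15341 ranged from 825 to 1500 CPM in embryonic precursors, stood at 457 at P4 and ranged from 63.4 to 190 at P8 and P12, a log2 change of -2.58 ± 0.37 (SE, adjusted p = 9.34e-05, edgeR). Row 6152 ranged from 897 to 1312 CPM before birth, stood at 590 at P4 and ranged from 51.8 to 140 later, a change of -2.36 ± 0.47 (SE, adjusted p = 0.00178, edgeR). Row 31191 had the same shape, at 514 to 946 CPM before birth, 503 at P4 and 155 to 204 later, and its change was -1.66 ± 0.29 (SE, adjusted p = 0.000658, edgeR). After scaling by TMM factors, the normalization used in the fit, its mean was 803 ± 204 CPM (SD, n = 6) before birth and 253 ± 158 (SD, n = 5) after.

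Among the other high scores, row 29652 fell from 150 to 313 CPM before birth to 31.4 to 103 after (log2 change -1.75), and row 25953 from 310 to 498 to 130 to 221 (log2 change -1.17), both without overlap. Row 2438 also fell, by 1.02 on the log2 scale, but its groups overlapped, since P12b at 840 CPM stood above E21b at 574, and it did not pass without P8a (log2 change -0.88, adjusted p = 0.0619, edgeR). Rows 26625 and 10197 did not pass the test, with log2 changes of -0.31 ± 0.36 and -0.62 ± 0.26 (SE). Both had their lowest embryonic value in E21b, at 23.4 and 35.2 CPM, from 4 and 6 UMIs, and without E21b row 10197 passed (-0.73, adjusted p = 0.0320, edgeR).

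**Figure D3:**
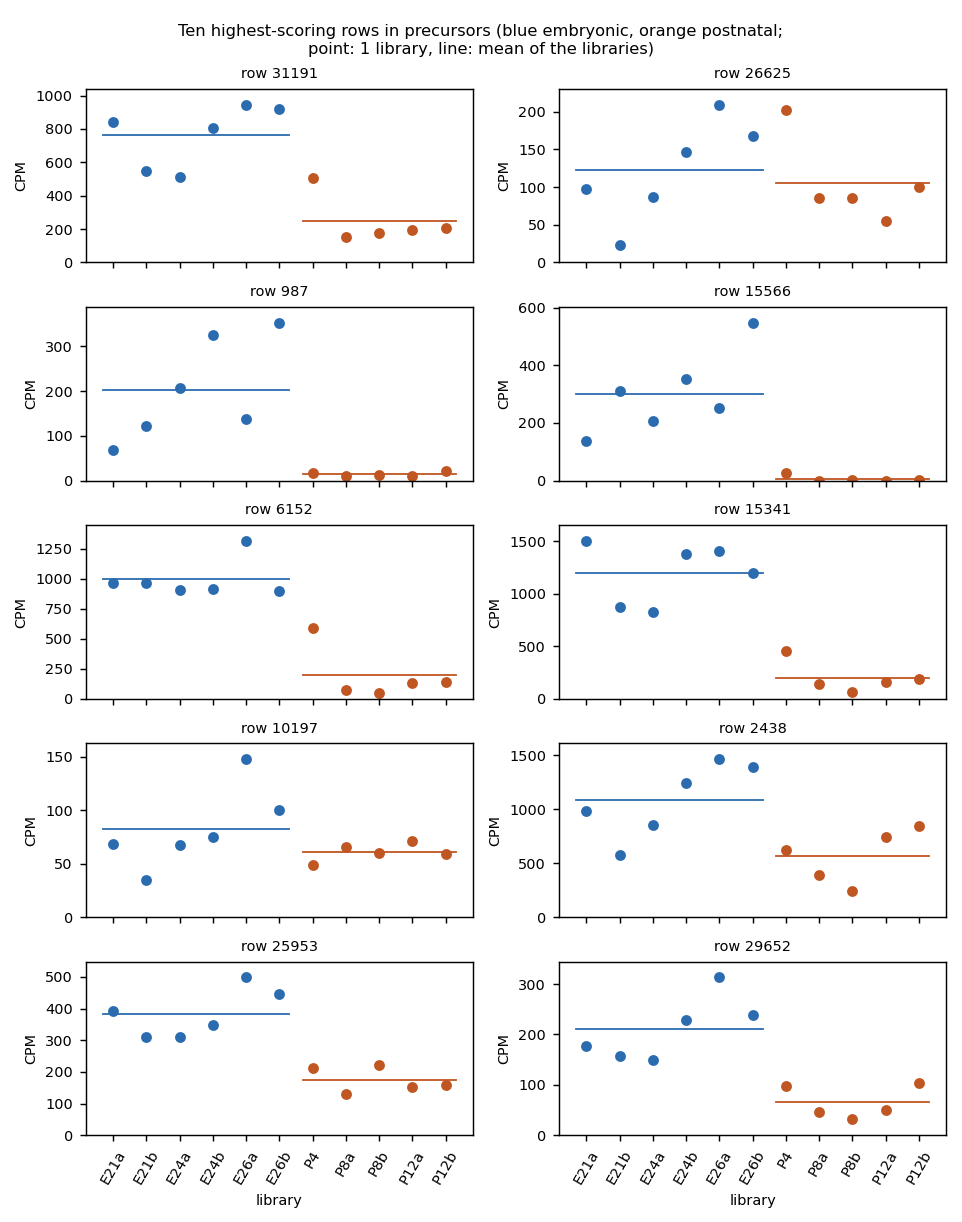
CPM of the 10 highest-scoring rows (1 panel each, vertical axis from 0) in precursors of each library (horizontal axis). Points are libraries, blue embryonic and orange postnatal, and lines are the means of the libraries. In 7 of the 10 panels every blue point lies above every orange one; the exceptions are rows 26625, 10197 and 2438.

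The direction of this change is not independent of how the rows were chosen. Cone, BC, Rod and MG had at least 10 cells only in postnatal libraries, and they were the next type for 10, 9, 3 and 3 members. When the list was chosen again without Cone and Rod among the other types, 19 of its 60 rows were members. In the same test 15 rows of that list rose and 17 fell, where 13.4% of all rows tested rose and 11.3% fell.

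Cell by cell, the 10 highest-scoring rows had a lower median share of precursors with a UMI after birth in 10 of 10, but every embryonic library stood above every postnatal one for only 5 of them, rows 987, 6152, 15341, 25953 and 29652. With each cell thinned to 1000 UMIs, which left out 4 of 825 embryonic and 32 of 1424 postnatal precursors, row 31191 was found in 39.0% to 61.1% of the cells of a library before birth and in 15.4% to 40.05% after. Row 15341 was found in 43.4% to 73.8% and then in 5.98% to 34.1%. Without thinning the ranges were 70.5% to 95.7% and 47.2% to 70.2% for row 31191. For row 15341 the unthinned ranges were 68.2% to 100% and 22.7% to 77.7%. In embryonic RGC, whose library medians were 7573 to 14126 UMIs per cell, the thinned shares were 0.128% to 0.724% for row 31191 and at most 2.41% for row 15341, and the unthinned shares 0.447% to 3.60% and 2.03% to 11.9%. Thinned shares in embryonic RGC were higher for row 6152 (6.52% to 13.9%) and row 25953 (14.9% to 20.5%). Whether UMIs in RGC came from these cells or from free RNA was not tested. Row 15566 was seen in at most 11.2% of thinned embryonic precursors and at most 2.29% of postnatal ones. Row 26625 overlapped widely, at 4.55% to 18.5% before birth and 7.53% to 19.0% after.

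The second comparison asked the same of the neurogenic progenitors, the class that precedes precursors, with Early_NG and Late_NG cells pooled in 7 embryonic and 6 postnatal libraries. Of the 57 members that could be tested 13 rose after birth and 1 fell, where 16.5% of all 9349 rows tested rose and 18% fell. The share of members that rose, 22.8%, was not far from the background, and the share that fell, 1.75%, was below it. Neurogenic levels are ceilings in the rule that chose the rows, so these shares are not independent of that choice. The median change of the members was 0.20 on the log2 scale against -0.05 over all rows. Rows 26625, 15566 and 3991 were below the count filter. The 1 member that fell was row 18547 (log2 change -1.07 ± 0.32, SE, adjusted p = 0.0155, edgeR), named here after its value was seen.

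Row 23149 rose most among members without overlap between the groups. In Early_NG it stood at 15.5 CPM at E18, 49.2 and 67.3 at E21, 72.7 and 115 at E24 and 105 and 123 at E26. In Late_NG it was at 159 in E26a, 465 at P4, 562 and 308 at P8, 887 and 671 at P12 and 539 at P17. Every postnatal library was higher than every embryonic one, and the log2 change was 2.90 ± 0.37 (SE, adjusted p = 1.08e-05, edgeR). In precursors the same row was already at 475 to 979 CPM before birth and at 321 to 933 after, with a change of -0.30 ± 0.25 that did not pass the test.

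Row 17024 behaved similarly at a lower level. It ranged from 3.7 to 14.5 CPM in embryonic Early_NG and from 26.9 to 59.2 in postnatal Late_NG, a log2 change of 2.28 ± 0.32 (SE, adjusted p = 3.30e-05, edgeR), against 19.6 to 83.9 and 34.8 to 145 CPM in embryonic and postnatal precursors. Row 2438 rose in neurogenic progenitors (adjusted p = 3.18e-05, edgeR), from 81.0 to 165 CPM in embryonic Early_NG to 237 to 784 in postnatal Late_NG, while it fell in precursors. By P12b its level was 784 CPM in Late_NG, 840 in precursors, 816 in Cone, 944 in Rod and 633 in BC.

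Several of the highest-scoring rows were uneven between postnatal libraries of Late_NG. Row 31191 stood at 176 CPM at P4, 24.9 in P8a and 142 in P8b and had 0 UMIs in P12a, P12b and P17, which allows up to 9.97, 5.19 and 17.8 CPM. Row 6152 was at 222 CPM at P4 and at 1.7 to 23.7 in the later libraries, and without P4 its change in neurogenic progenitors went from -0.73 to -2.87 and passed the test (adjusted p = 2.12e-05, edgeR). Row 15341 did so too, going from -1.16 to -2.67 without P4 (adjusted p = 0.00465, edgeR). Nearly all embryonic neurogenic cells carried the Early_NG label (1762 cells in libraries of at least 10, against 37 of Late_NG) and nearly all postnatal ones the Late_NG label (1010 against 50), so stage and label cannot be told apart.

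The third comparison tested the difference between these changes with stage, in the 11 libraries that held both classes, with the library as a block. For 30 of 60 members the change after birth was lower in precursors than in neurogenic progenitors and for 0 it was higher, where 5.62% of all 11574 rows tested differed in the first direction and 7.89% in the second. The 0 compares with 0 at an unadjusted p below 0.05 and 0 with DESeq2. The median difference of the members was -0.85 on the log2 scale against 0.04 over all rows. Precursors are one side of this contrast, so its direction is not independent of the choice of rows either.

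The largest difference among called members whose embryonic and postnatal precursors did not overlap was that of row 987, at -3.73 ± 0.43 (SE, adjusted p = 1.83e-08, edgeR). In Early_NG this row was between 0 and 18.2 CPM before birth and in Late_NG between 0 and 23.7 after, and its change with stage in neurogenic progenitors, 0.25 ± 0.64 (SE), did not pass the test. Row 11800 was next, at -1.72 ± 0.27 (SE, adjusted p = 7.34e-06, edgeR). It fell from 176 to 349 CPM in embryonic precursors to 29.5 to 97.1 in postnatal ones, while Early_NG stood at 35.9 to 64.5 before birth and Late_NG at 19.9 to 50.2 after. Rows 2438 and 10197, which rose in neurogenic progenitors, differed by -2.77 ± 0.19 and -2.67 ± 0.29 (SE). For rows 31191, 15341 and 15566 the difference did not pass the test (adjusted p = 0.0821, 0.132 and 0.195, edgeR). For row 31191 it passed without P12a, without P12b or with no low-count filter (adjusted p = 0.0312, 0.00139 and 0.0377, edgeR). For row 15341 it passed without P12b (adjusted p = 0.0180, edgeR). For row 15566 it passed with DESeq2 (adjusted p = 0.00522). In edgeR row 15566 also passed with no low-count filter (adjusted p = 0.00758) or without cells above 2 times the median UMI count (adjusted p = 0.00111).

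**Figure D4:**
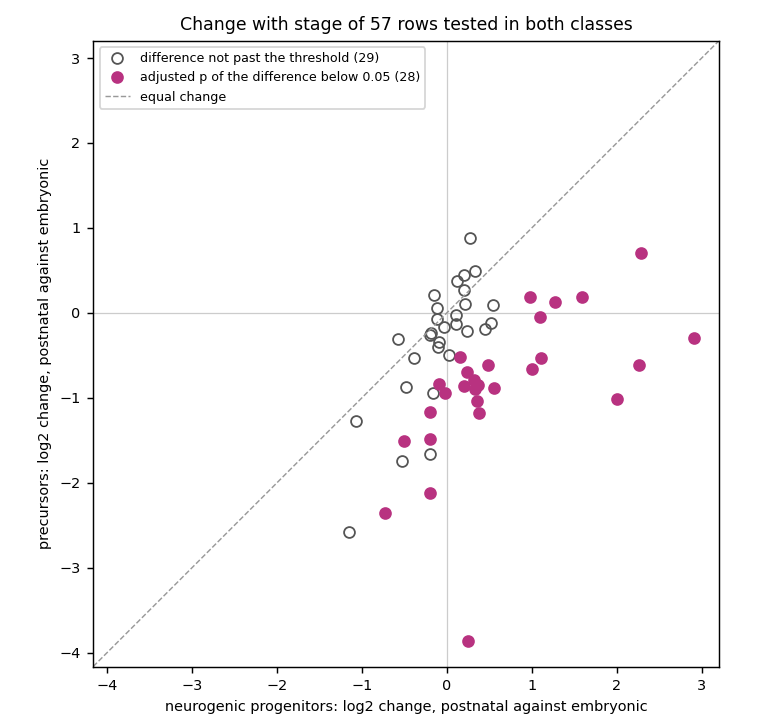
Log2 change from embryonic to postnatal libraries in precursors (vertical axis) against that in neurogenic progenitors (horizontal axis) for the 57 rows tested in both classes, 1 point per row, with filled points for the 28 of these rows whose difference passed the test (adjusted p below 0.05, edgeR). 48 of the 57 points lie below the dashed line of equal change. The share of all rows below that line was not computed, and precursor levels were used to choose the rows.

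The next comparisons asked whether the rows were already higher on entry into neurogenesis, in neurogenic against primary progenitors (Early_RPC plus Late_RPC) of the same library. In the 7 embryonic libraries 21 of 60 members were higher in neurogenic progenitors and 7 lower, where 13.9% of all 15679 rows tested were higher and 14.9% lower. In the 5 postnatal libraries 16 of 56 members were higher and 0 lower (0 at an unadjusted p below 0.05 and 0 with DESeq2), where 7.79% of 7574 rows were higher and 9.48% lower. The median differences of the members were 0.07 and 0.21 on the log2 scale, against 0.00 and -0.02 over all rows. Primary and neurogenic levels are both ceilings in the rule that chose the rows, so these counts are not independent of that choice.

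Row 31191 was the most raised before birth. In Early_NG it was at 3.7 CPM at E18, 41.9 and 60.7 at E21, 56.1 and 72.5 at E24 and 97.9 and 84.2 at E26, and in Early_RPC at 0.8, then 5.5 and 7.6, then 22.1 and 21.3, then 35.3 and 35.1. It was higher in neurogenic progenitors in 7 of 7 libraries, by 1.90 ± 0.18 on the log2 scale (SE, adjusted p = 2.10e-06, edgeR), and both classes were higher at E26 than at E18. Row 23149 was higher by 1.77 ± 0.16 (SE, adjusted p = 1.09e-06, edgeR) before birth and by 2.88 ± 0.27 (SE, adjusted p = 1.44e-07, edgeR) after. Row 26501 was higher by 1.98 ± 0.25 in 5 of 5 postnatal libraries (SE, adjusted p = 7.11e-06, edgeR), with Late_NG at 96.4 to 564 CPM from P4 to P12 and Late_RPC at 2.9 to 224.

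The members that were lower in embryonic neurogenic progenitors differed by less. Row 13451 was lower by 0.54 on the log2 scale in 7 of 7 libraries (log2 difference -0.54 ± 0.09, SE, adjusted p = 0.000378, edgeR), at 72.1 to 117 CPM in Early_NG and 122 to 159 in Early_RPC. Row 34074 differed by -0.49 ± 0.12 (SE, adjusted p = 0.00505, edgeR). Rows 26625, 15566 and 10197, high in embryonic precursors or later, did not pass the test before birth, and in Early_NG row 26625 stayed at or under 13.8 CPM and row 15566 at or under 21.9.

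Cones and bipolar cells, both known to arise from cells that express Otx2, were compared within 5 postnatal libraries. Cone, BC and Rod levels are ceilings in the rule that chose the rows. The comparisons of cones with bipolar cells and with rods are therefore not independent of that choice. Of 60 members 14 were higher in cones and 4 lower, where 17.5% of all 14160 rows tested were higher and 18.1% lower, so the members, at 23.3% and 6.67%, were near the background in the first direction and below it in the second. Row 15341 showed the largest difference: it stood at 225 to 374 CPM in Cone and 2.2 to 11.3 in BC, and was higher in 5 of 5 libraries by 6.08 ± 0.33 on the log2 scale (SE, adjusted p = 1.28e-06, edgeR). Row 8558 was at 51.5 to 155 CPM in Cone and 1.3 to 15.1 in BC, a difference of 4.30 ± 0.25 (SE, adjusted p = 2.28e-06, edgeR). Rows 987 and 31191 were higher in cones by 3.70 ± 0.27 and 2.90 ± 0.66 (SE).

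In the other direction, row 15566 was lower in cones by 1.82 on the log2 scale (-1.82 ± 0.35, SE, adjusted p = 0.00269, edgeR), but at 0 to 5.3 CPM in Cone and 2.0 to 16.7 in BC it was scarce in both. Its level outside precursors was in AC, at 63.6 and 87.1 CPM at P12 and 124 at P21, yet only 6.11 at P17 and 4.18 to 12.9 from P4 to P8. Row 15484 was lower in cones by -0.51 ± 0.15 (SE, adjusted p = 0.0217, edgeR), which did not pass without P12b (adjusted p = 0.101) or without P17 (adjusted p = 0.0541).

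Cones and rods were compared within 4 libraries, of which the rods numbered only 14 to 89 cells. Of 60 members 7 were higher in cones and 0 lower (0 at an unadjusted p below 0.05 and 0 with DESeq2), where 2.75% of all 10617 rows tested were higher and 1.35% lower. Row 15341 stood at 276, 332, 294 and 374 CPM in the cones of P12a, P12b, P17 and P21 and at 79.0, 23.0, 50.7 and 48.8 in their rods, from 3, 1, 4 and 8 UMIs, a difference of 2.97 ± 0.31 on the log2 scale (SE, adjusted p = 1.08e-18, edgeR). Row 11800 was at 34.1 to 117 CPM in these cones and 0 to 23.0 in the rods, where it had 0, 1, 0 and 3 UMIs, too few for a fold to be given. It passed the test (adjusted p = 0.00774, edgeR) but not with DESeq2 (adjusted p = 0.398), and it did not pass without P12a (adjusted p = 0.0521) or without P12b (0.110). Over all rows tested the median difference was 0.21, which lifts the members' median of 0.32 as well, and DESeq2 called 1 member.

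The last comparison set cones at P17 and P21 against cones at P8 and P12. Of 60 members 1 fell and 0 rose, where 0.0235% of all 12742 rows tested fell and 0.0785% rose. In all, 10 rows rose and 3 fell. At an unadjusted p below 0.05 the counts were 17 lower and 3 higher, but the shares of all rows at that threshold were not computed. DESeq2 called 4 members lower and 0 higher, where it called 0.735% of all rows lower and 1.73% higher. Row 26625 was the member that fell: it held 115 CPM in cones of P8a, 75.2 and 104 at P12, and then 2.3 at P17 and 2.0 at P21, a log2 change of -5.28 ± 0.46 (SE, adjusted p = 0.00168, edgeR). The same row was at 111 and 79.7 CPM in BC at P8 and at 7.5 and 0.0 in BC at P17 and P21. Row 987 went the other way in value, from 23.7 to 27.7 CPM in the early cones to 40.6 and 51.7 in the late ones, and did not pass the test. Without P17, which left 1 late library that was assumed to vary like the early ones, 7 members were called lower and 2 higher, where 4.67% of 13652 rows were lower and 6.79% higher.

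**Figure D5:**
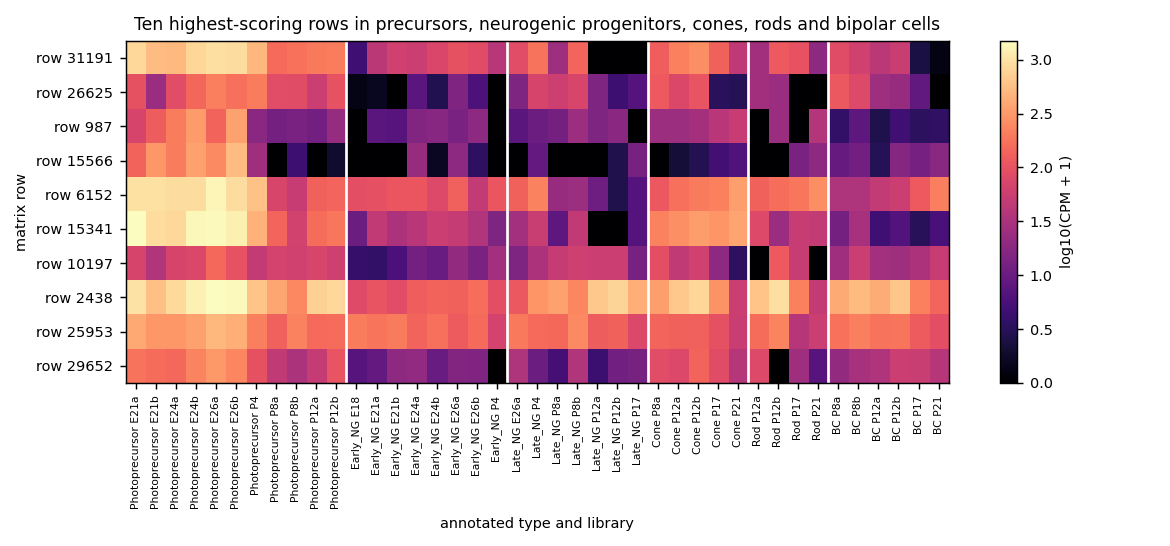
Level of the 10 highest-scoring rows (vertical axis) in each library with at least 10 cells of precursors, Early_NG, Late_NG, Cone, Rod and BC (horizontal axis, white lines between types), as log10 of CPM plus 1. Rows 15341 and 6152 are bright in embryonic precursors and in cones, and row 6152 also in rods (132 to 268 CPM) and in BC at P17 and P21 (116 and 211 CPM). Row 15566 is bright in embryonic precursors alone among these types, and row 26625 darkens in Cone and BC from P17.

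The most abundant members, rows 15664, 7249 and 17886 at ranks 49, 60 and 19, were plentiful in every type. They held 2778, 2710 and 2406 CPM in precursors against 2565, 2543 and 2003 in their next type, which was Early_RPC or Early_NG, and 1704, 1455 and 1060 in their lowest, which was AC or MG. In precursors row 15664 ranged from 2027 to 2639 CPM before birth and from 1832 to 3372 after, with the highest value in P8b, and its change with stage was 0.06 ± 0.18 on the log2 scale (SE). Row 7249 was at 1295 CPM in P12a and 3335 in P12b, a spread between libraries of 1 time point that exceeded its difference from any type, and Cone (1380 and 3359), Rod (1212 and 3201) and BC (1197 and 2624) showed the same spread between the P12 libraries. Row 19007, at 705 CPM in precursors and 616 in Early_NG, fell with stage by 0.53 on the log2 scale.

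The place of some members in the list depended on P8b. This library held the most precursor UMIs for 46 of the 60 members, as a library with 32.2% of all precursor UMIs would for a row of even level, while 2 members had over 50% of theirs in a single library. By CPM 15 members, all outside the 10 highest scores, had their highest precursor CPM there. Row 15484 was the extreme among the named rows, at 111 CPM in P8b, 24.5 to 68.6 in the other libraries, and 58.5% of its precursor UMIs from P8b. When the rows were chosen without P8b, 37 of the 60 were kept, none of the 10 highest scores was lost, and 15 of the 23 that were lost had their highest precursor level in P8b. In the stage comparison inside precursors, leaving P8b out gave 25 members lower and 0 higher, where 8.81% of 8661 rows were lower and 12.4% higher.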

How the data were processed

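Retinal single-cell libraries (10x 3′ v3.1) were processed by the authors with CellRanger 3.1.0 on the HiC_Itri_2 assembly, aggregated with CellRanger aggr 3.1.0 and analyzed in Seurat 4.0.4 with the SCT workflow, and cell types were named cluster by cluster, with cell filters, doublet removal and any subsampling by aggr not given in the sources used here. No doublet caller was run. The values used were the deposited whole-number UMI counts per row and cell, not normalized, with the deposited cell table (type, time point, cell name). Cell order was checked by matching 3000 cells to mean profiles of the types built from other cells, and 90.1% matched their own type, against 8.3% with shuffled types.

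Libraries were the cell name suffixes. P1 has 2 suffixes and 1 labelled sample, so its 6920 cells (13.0%) are not analysed here, and the rule was applied to the other 46474 cells. Counts were summed per library and type, or class of types, for sums of at least 10 cells (101995 to 3186709 UMIs in precursors) and tested with edgeR 4.0.16 (R 4.3.3; filterByExpr, TMM, glmQLFit, glmQLFTest), which recovered known changes in simulated counts. Benjamini-Hochberg adjustment covered all rows tested, threshold 0.05. Comparisons of classes within libraries had the library as a block. CPM per library is unscaled unless TMM is named.

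Rows named were the 10 highest scores, the 5 highest precursor CPM, ranks 59 to 62, and per comparison the 2 largest rises and falls among called members without overlap between groups (blocked comparisons: the same direction in every library; test between changes with stage: no overlap between stages in precursors). Other named rows were chosen after their values were seen. The members, lists and tests were chosen with earlier results of these data known. Alternatives were DESeq2 1.42.0, its size factors, no filter, at least 30 cells, cells above 2 times the median UMI count left out, thinning, each library left out, and other ways of choosing the rows.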

Additional observations from a re-analysis of the deposited data

Results flagged for a closer look

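In 27 groups of libraries, 1 library could be compared with the rest. The groups were the 10 highest-scoring rows in precursors of each stage, and the summed level by type. A library stood far from the others in 4 groups. Chance gives about 5% of groups where libraries differ at random. Here the libraries of a group differed in age and the groups shared libraries, so that rate is only a rough guide. Of the 4, 3 concern P4, the youngest postnatal library used, in postnatal precursors. Row 31191 stood at 503 CPM there against 155 to 204 at P8 and P12, row 6152 at 590 CPM against 51.8 to 140, and row 15566 at 25.6 CPM against 0 to 3.45. The other is row 6152 in embryonic precursors, at 1312 CPM in E26a against 897 to 967 in the other embryonic libraries.

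For 7 named rows the level changed differently with stage in precursors than in neurogenic progenitors by the test of the difference itself (edgeR). Except for row 11800, named because it was called in this test, these rows are among the 10 highest scores. Among those scores, rows 31191, 15341 and 15566 did not pass. Of all 11574 rows tested, 5.62% had a lower change in precursors and 7.89% a higher one. Precursors are part of this contrast, so its direction is not independent of how the rows were chosen. The differences in log2 change, precursors minus neurogenic progenitors, were -3.73 for row 987, -2.98 for row 26625, -2.77 for row 2438, -2.67 for row 10197, -1.72 for row 11800, -1.30 for row 6152 and -1.15 for row 25953. That of row 6152 did not pass without P4 (-0.55, adjusted p = 0.505) or with DESeq2 (adjusted p = 0.465).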

How the results depend on the processing

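Of the 60 members 58 and 55 were kept with a constant of 1 or 50 CPM, 51 without cells above 2 times the median UMI count, 31 with libraries weighted equally, 19 without Cone and Rod, and 37 (without P8b) to 57 (without E18) when 1 library was left out, and 12 were kept under all 19 settings. In lists chosen in these ways the precursor comparison gave 42 rows lower with equal weights, 15 higher and 17 lower without Cone and Rod, and 18 to 45 lower over lists without 1 library (45 without P8b). These counts were read from the main fit, in which 11.3% of all rows were lower in precursors and 13.4% higher. In neurogenic progenitors, the rows lower after birth were 8 with equal weights, 3 without Cone and Rod, 2 without high-UMI cells and 0 to 8 without 1 library. Against primary progenitors 3 were lower before birth with equal weights, and 0 to 1 after birth without 1 library. In the main fits 18% of all rows were lower in neurogenic progenitors after birth. Against primary progenitors 14.9% were lower before birth and 9.48% after.

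For the 60 members, the rises in precursors were 1 with DESeq2 size factors, 2 without the filter, 1 without high-UMI cells and 0 to 2 without 1 library. The shares of all rows that rose were 14.6%, 7.89%, 12.9% and 9.99% to 16% in the same order. Thinning every sum to the smallest left 3 of 42 members lower in precursors (28 rows called in all, of 1822 tested) and 0 higher and 0 lower in neurogenic progenitors of 22 (14 rows in all), while fold changes of rows that no longer passed could stay as large (row 31191 -1.86, row 6152 -2.42 in precursors). In neurogenic progenitors the lower members were 2 with DESeq2 size factors, 3 with DESeq2, 5 without the filter, 2 without high-UMI cells and 1 to 4 without 1 library. The shares of all rows lower there were 19.5%, 13.1%, 9.69%, 18.4% and 13.1% to 18.2% in the same order. Against primary progenitors, 4 to 8 were lower before birth without 1 library, where 11.6% to 16.9% of all rows were lower. After birth all rows called were 693 with DESeq2 and 770 to 1405 without 1 library. Cones against bipolar cells gave 3 to 7 lower without 1 library (7 without P21), where 14.1% to 20.4% of all rows were lower. Cones against rods gave 1 higher with DESeq2, 2 with at least 30 cells and 4 to 7 without 1 library, and 145, 741 and 287 to 353 rows in all with DESeq2, without the filter and without 1 library. The shares of all rows higher in cones were 0.532% with DESeq2, 2% with at least 30 cells and 2% to 2.35% without 1 library. In late against early cones the lower members were 4 with DESeq2, 5 without the filter and 1 to 7 without 1 library, the higher ones 0 to 2, and all rows called 275, 742, 20 (without high-UMI cells) and 3 to 1564 (without P17). Without the filter 3173 rows were called in precursors. The cause of these shifts was not tested.

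Of 664 recomputed values of named rows, 632 kept direction and side of the threshold, and 4 changed sign, none of them called: row 31191 in neurogenic progenitors (-1.72 without P4 to 0.14 without P12b) and row 25953 there (0.28 after thinning). Between ages, no paired analysis was possible because the cell names carry no replicate number, whereas tests between classes of the same library did have that library as a block.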
